A study of Mus musculus with 6 samples.

Results

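The genes described here are 9 transcripts of the canonical WNT pathway, Axin2, Sp5, Nkd1, Lef1, Tcf7, Tcf7l1, Cdx1, T and Rnf43. They were chosen by symbol, without use of their measured values in the choice rule, and all 9 were found among the 23889 genes listed in each of the 3 deposited tables. Each was followed through 6 mouse RNA sequencing libraries. Androgenetic haploid embryonic stem cells (AG-haESCs), which carry only a sperm genome, gave 3 libraries from the lines A129-2, AOS-14 and AOS-16, with 1 library per line. They are labelled as F1 hybrid C57BL/6 X DBA/2, were grown on feeder cells in medium with 2i, first with knockout serum replacement (KSR), and were collected by sorting Hoechst-stained haploid cells in G0/G1. Round sperm, of the same strain label, had 1 library, and its protocol text on culture and sorting is the one given for the haploid lines. ESC XX, from an Oct-GFP line on a C57 background, had 2 libraries. These cells grew in fetal bovine serum with LIF and 2i and were harvested after a feeder removal step, with no sort named. Nothing in the labels says that the ESC XX libraries are separate cultures, so their spread may be technical. Oocytes came from BDF1 mice of 8 to 10 weeks, while the age and number of the sperm donors are not stated in the labels.

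All embryonic stem cell groups were thus exposed to 2i, a mixture of inhibitors of the kinases MEK and GSK3. GSK3 belongs to a destruction complex, built on the AXIN and APC scaffolds, that marks β-catenin for degradation. When GSK3 is blocked, β-catenin enters the nucleus and joins DNA-binding proteins of the TCF/LEF family. Among these, TCF7L1 acts in mouse embryonic stem cells chiefly as a repressor whose block β-catenin relieves, while LEF1 and TCF7 act chiefly as activators. Axin2, Nkd1 and Rnf43 are feedback inhibitors switched on by the pathway, and Sp5, Cdx1 and T encode transcription factors that are WNT targets in the embryo and in differentiating stem cells.

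Promoter sequences are shown for Sp5, T and Axin2, which are among the genes that stood lowest in the haploid lines relative to ESC XX. They come from RefSeq on GRCm38.p6, a later build than the mm9 used for the deposited values. Each window runs on the plus strand from 250 bases before to 50 after an annotated transcript start. Capitals mark the letters CTTTGAA or CTTTGAT or CTTTGTA or CTTTGTT on either strand, which are forms of the core bound by TCF/LEF proteins. The windows are chr2:70474673-70474972 for Sp5, chr17:8434173-8434472 for T and chr11:108920099-108920398 for Axin2.
Sp5: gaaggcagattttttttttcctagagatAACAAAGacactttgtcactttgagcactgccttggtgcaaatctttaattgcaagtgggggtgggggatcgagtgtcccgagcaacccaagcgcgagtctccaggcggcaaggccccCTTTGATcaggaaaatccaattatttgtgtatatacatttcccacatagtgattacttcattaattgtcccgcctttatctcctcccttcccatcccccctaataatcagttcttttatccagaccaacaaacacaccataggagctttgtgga
T: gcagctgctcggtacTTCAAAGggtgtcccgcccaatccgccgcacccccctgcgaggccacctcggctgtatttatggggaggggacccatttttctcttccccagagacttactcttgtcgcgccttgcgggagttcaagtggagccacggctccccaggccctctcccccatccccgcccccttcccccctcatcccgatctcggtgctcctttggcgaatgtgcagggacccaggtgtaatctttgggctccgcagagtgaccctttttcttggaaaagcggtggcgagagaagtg
Axin2: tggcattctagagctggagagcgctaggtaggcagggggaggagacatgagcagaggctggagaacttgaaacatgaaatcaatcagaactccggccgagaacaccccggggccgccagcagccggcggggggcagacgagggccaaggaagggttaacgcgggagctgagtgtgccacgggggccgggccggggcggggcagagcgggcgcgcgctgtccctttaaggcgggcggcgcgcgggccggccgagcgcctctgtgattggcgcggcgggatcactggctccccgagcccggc
The Sp5 window held 2 non-overlapping matches, CTTTGTT on the minus strand with its first base at -222 and CTTTGAT on the plus strand at -104, counted from 1 at the transcript start with no position 0. The T window held CTTTGAA on the minus strand at -235. No match was found in the letters of the Axin2 window. Windows were found for 8 of the 9 genes, with 13 windows in all, and 3 genes had a match, the third being 1 of the 4 Lef1 windows. Of all 32851 RefSeq windows of this length, 16.9% held at least 1 match and 1.94% held 2 or more, beside 3 of the 13 windows here (23.1%). Counted by gene, 18.9% of 27025 genes had a match. A match describes the letters in the window only.

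The label of each group was first set against marker genes. Summed over 10 pluripotency markers, the level was 7794 to 8619 TPM in the AG-haESC libraries, 8056 and 8158 TPM in ESC XX and 204 TPM in round sperm. TPM here are the deposited FPKM (fragments per kilobase of transcript, scaled to the mapped fragments of the library) of a library rescaled to a common total. Summed over 12 spermatid markers, round sperm reached 37338 TPM against at most 23.5 TPM in any stem cell library. Estimated depth ran from 8400000 fragments in A129-2 to 17850000 in AOS-14. The 8 Sertoli and Leydig cell markers together stayed at 7.46 TPM in round sperm. The 16 feeder fibroblast markers summed to 430 to 716 TPM in the AG-haESC lines, 3867 and 3877 TPM in ESC XX and 34.1 TPM in round sperm. No gene of that list was at 0 in every library of either stem cell group. Medium, feeder removal, sorting, ploidy, sex chromosomes and strain all changed together between AG-haESCs and ESC XX and cannot be told apart. In bulk samples, fewer cells of a type and less RNA per cell cannot be told apart either.

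Of the 3 DNA-binding proteins, Tcf7l1 and Tcf7 differed least between the stem cell groups. Tcf7l1, the repressor, stood at 124, 58.4 and 89.2 TPM in A129-2, AOS-14 and AOS-16 and at 79.3 and 73.6 TPM in ESC XX, against 0.421 TPM in round sperm. The ESC XX values lay inside the range of the lines, and it was the most abundant of the 9 genes in every stem cell library. An antisense gene, Gm15401, shares exonic sequence with Tcf7l1 in a GRCm38 annotation and was listed at no more than 1.42 TPM in any library. In that annotation antisense genes also share exonic sequence with Axin2 (Gm11670) and Lef1 (Gm43352). These are not among the genes listed, so their levels could not be seen. Tcf7, an activator best known from T lymphocytes, was at 16.8, 22.5 and 27.0 TPM in the lines and at 30.8 and 31.7 TPM in ESC XX. The lines lay below both ESC XX libraries, by a factor of 1.41 in the means. Round sperm had 1.35 TPM of Tcf7.

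Lef1, the other activator, was the most uneven of the 9. It was at 1.72 TPM in A129-2, 2.77 TPM in AOS-14 and 15.3 TPM in AOS-16, so that AOS-16 exceeded A129-2 by 8.84-fold and AOS-14 by 5.50-fold. ESC XX, at 12.3 and 12.6 TPM, fell between AOS-16 and the other lines. Round sperm held the most, 27.7 TPM, and there Lef1 was the highest of the 9 genes. With 1 library per line, the gap between lines has no replicate check.

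The feedback inhibitors were scarce in the haploid lines. Axin2, a scaffold of the destruction complex and a widely used readout of β-catenin activity, was at 1.10, 1.06 and 1.47 TPM in the lines, in the order A129-2, AOS-14 and AOS-16. ESC XX had 19.1 and 19.2 TPM, which is 15.8-fold the mean of the lines, and no single line came closer than 13.03-fold. Round sperm was lowest at 0.201 TPM. The AG-haESC values rested on about 20, 57 and 34 fragments and the ESC XX values on about 620 and 715. Nkd1, which binds Dishevelled and dampens the signal, was at 0.328, 0.434 and 0.414 TPM in the lines, 1.21 and 1.11 TPM in ESC XX and 0.144 TPM in round sperm. Rnf43, a ubiquitin ligase that removes Frizzled receptors from the cell surface, was at 0.104, 0.278 and 0.331 TPM in the lines and at 0.750 and 0.629 TPM in ESC XX, and was highest in round sperm at 1.21 TPM. For both genes every line lay below both ESC XX libraries, at ratios of 2.96 for Nkd1 and 2.90 for Rnf43, but on few fragments. Exact Poisson intervals at 95% cover counting error only and are given in deposited FPKM. For Nkd1 they ran from 0.0642 to 0.381 FPKM in A129-2 and from 0.189 to 0.457 FPKM in AOS-14. In the second ESC XX library they ran from 0.406 to 0.774 FPKM. The last 2 overlap in this unit, but the FPKM totals of these libraries differ, at 707325 and 507692. The intervals were not compared after rescaling to TPM.

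All 3 transcription factors were lower in every AG-haESC line than in both ESC XX libraries. Cdx1, a caudal-type homeobox factor of the posterior embryo and intestine, was at 2.72, 2.22 and 2.93 TPM in A129-2, AOS-14 and AOS-16 and at 61.0 and 59.7 TPM in ESC XX, a ratio of 23.0. The lowest ratio for a single line was 20.6. Sp5, a zinc finger factor that acts downstream of WNT, was listed at 0 in A129-2 and stood at 0.151 TPM in AOS-14 and 0.267 TPM in AOS-16, against 12.0 and 11.9 TPM in ESC XX. These correspond to about 0, 4 and 3 fragments in the lines and about 192 and 219 in ESC XX. The counting intervals of Sp5 reached at most 0.426 FPKM in a line and began at 5.26 FPKM in ESC XX. Whether the 2 motif matches in the Sp5 window shown above bear on its level was not tested. T, or Brachyury, the T-box factor of primitive streak and early mesoderm, was at 0.458, 0.271 and 0.366 TPM in the lines and at 2.81 and 2.29 TPM in ESC XX, a ratio of 6.99. It rested on about 4, 7 and 4 fragments against 44 and 41. The highest counting bound in a line was 0.596 FPKM and the lowest in ESC XX was 0.834 FPKM. Cdx1 and T were listed at 0 in round sperm, where 3 fragments would have amounted to 0.175 and 0.150 FPKM.

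**Figure D1:**
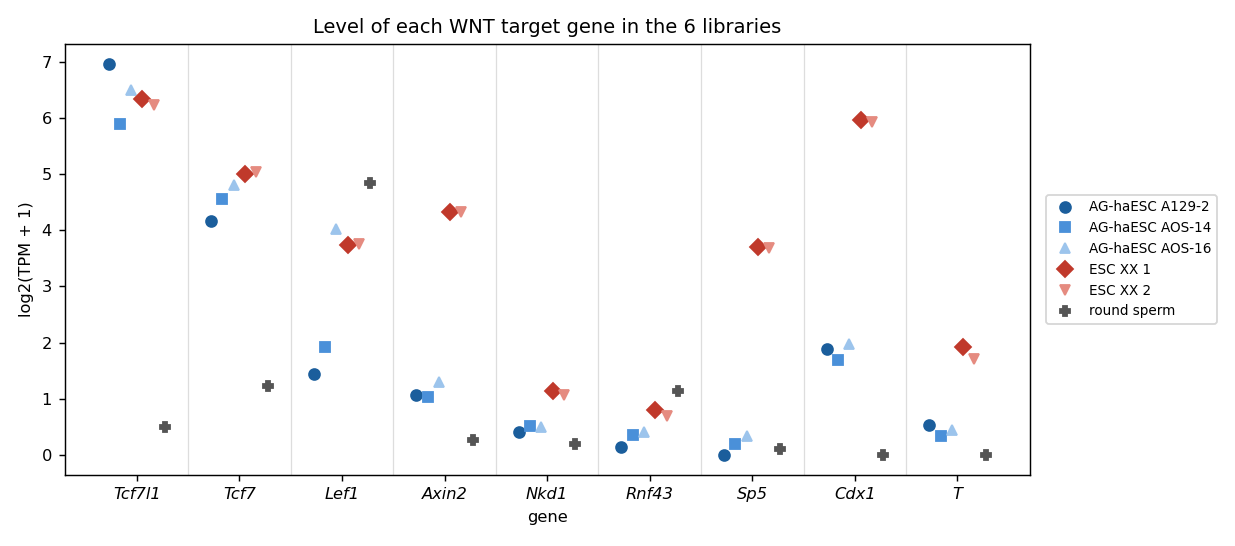
Level of each of the 9 genes as log2(TPM + 1) in the 3 AG-haESC lines (blue), the 2 ESC XX libraries (red) and the round sperm library (grey), 1 point per library. Axin2, Sp5, Cdx1 and T are set apart between the stem cell groups, Tcf7l1 and Tcf7 are close, and Lef1 is split among the lines from 1.72 to 15.3 TPM.

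In order of the group means in TPM, ESC XX was highest for Axin2, Sp5, Nkd1, Tcf7, Cdx1 and T, with AG-haESCs next and round sperm last. Of these 6, AG-haESCs and round sperm overlapped in TPM for Sp5 only. In deposited FPKM Nkd1 overlapped as well, at 0.178 FPKM in round sperm and 0.167 FPKM in A129-2. The Sp5 means were reversed in that unit, at 0.0842 FPKM in the lines and 0.0968 FPKM in round sperm. Tcf7l1 was the exception among stem cell genes, since AG-haESCs had the highest mean but overlapped with ESC XX. For Lef1 and Rnf43 round sperm came first and AG-haESCs last, and the AG-haESC and ESC XX libraries overlapped for Lef1. In all, 7 of the 9 genes had every AG-haESC library below both ESC XX libraries in TPM, where 22.4% of all listed genes did. That share counts in genes with no signal in ESC XX, which could never meet it, whereas all 9 had signal there. It was also taken without removing the median difference between the groups. The 2 shares are thus not like for like.

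The comparison with ESC XX set the haploid lines beside other embryonic stem cells in 2i. Cdx1, Sp5, Axin2 and T were lower in AG-haESCs, and none of the 9 genes was higher, under a rule that asked for a difference of at least 1 in mean log2(TPM + 1) and no overlap between the groups. The median difference of all genes kept, -0.10, was removed first. No test was run, as the ESC XX tables were normalized apart from the other 4 libraries. For all 9 genes the counting intervals of the ESC XX libraries overlapped each other, so their spread says little of how cultures vary. Cdx1 differed by -3.99 ± 0.15 (log2 ± SD of the lines, n = 3), Sp5 by -3.42 ± 0.17, Axin2 by -3.09 ± 0.14 and T by -1.28 ± 0.10. For Sp5 and T, at no more than 0.267 and 0.458 TPM in a line, the pseudocount of 1 holds down size and SD. Their small SDs thus do not show that the lines agree. The rule was met in the lower direction by 8.28% of the 13172 genes that reached an FPKM of 1 in at least 1 of the 5 libraries. Counted from the lowest difference of these genes, Cdx1 was at place 53, Sp5 at 86, Axin2 at 111 and T at 788. The order depends on the pseudocount, since with 0.1 Sp5 differed by -5.73 and Cdx1 by -4.36. Nkd1 and Rnf43 did not reach an FPKM of 1, and Axin2, Sp5 and T did so through ESC XX alone, so a count over the genes that passed says little by itself. With no filter on low values all 9 entered, the same 4 were lower, and 5.7% of 23889 genes were. Nkd1 then differed by -0.63 and Rnf43 by -0.45, sizes that the added pseudocount of 1 holds down for genes this scarce.

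Lef1, Tcf7 and Tcf7l1 did not meet the rule. Lef1 differed by -1.19 ± 1.37, ranging from -2.21 in A129-2 to 0.37 in AOS-16, and without AOS-16 it met the rule. Tcf7 differed by -0.41 ± 0.33 and Tcf7l1 by 0.27 ± 0.54.

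**Figure D2:**
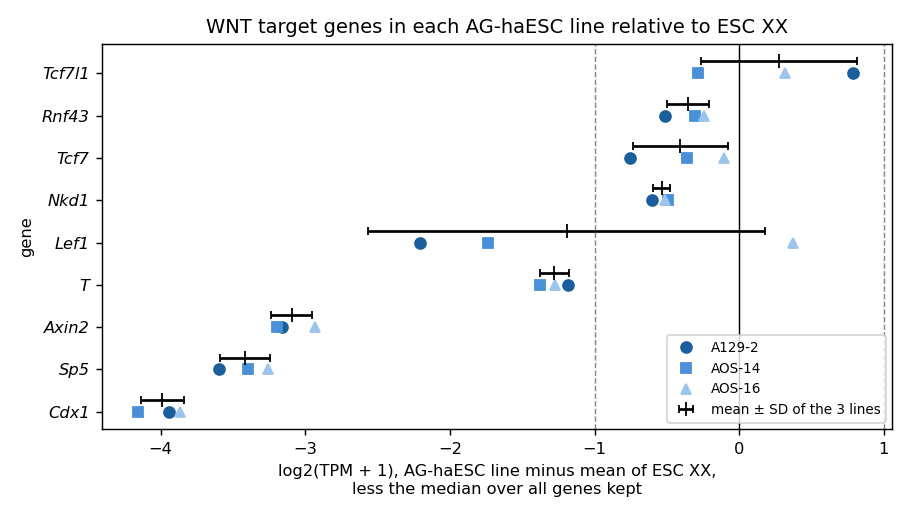
Difference of each AG-haESC line from the mean of the 2 ESC XX libraries in log2(TPM + 1), less the median over all genes kept, with the mean ± SD of the 3 lines in black above the points and dashed lines at -1 and 1. The 3 lines lie together for Cdx1 (-3.99), Sp5 (-3.42), Axin2 (-3.09) and T (-1.28) and spread for Lef1, from -2.21 to 0.37. For Sp5 and T, at no more than 0.267 and 0.458 TPM in a line, the pseudocount of 1 holds the spread down.

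Fibroblast transcripts moved in the same direction as these genes. Of the 16 feeder fibroblast markers 15 were kept, and 13 were lower in AG-haESCs than in ESC XX while none was higher, with a median of -3.27. By the same rule 8.28% of all genes kept were lower. Col1a1, a fibrillar collagen chain, was at 11.1, 56.4 and 95.4 TPM in A129-2, AOS-14 and AOS-16 and at 704 and 682 TPM in ESC XX. Acta2, a smooth muscle actin of activated fibroblasts, was at 3.58, 6.12 and 12.6 TPM against 585 and 588 TPM. The markers differed among themselves across the lines, as all 16 together summed to 546, 430 and 716 TPM in the same order. From A129-2 to AOS-16, the sum was 1.31-fold higher, Acta2 3.54-fold and Col1a1 8.56-fold, beside 1.33-fold for Axin2 and 8.84-fold for Lef1. The counting intervals of Axin2 overlapped among the lines, so no order of the lines is resolved for it. From AOS-16 to the mean of ESC XX, the sum was 5.41-fold higher, Col1a1 7.27-fold and Acta2 46.4-fold, beside 13.03-fold for Axin2, and Lef1 was at 0.817 of its AOS-16 level. The part of fibroblast RNA in the differences of Axin2, Sp5, Cdx1 and T was not tested. Pluripotency markers showed no such shift, with 0 of 10 meeting the rule (1 without A129-2) and a median of -0.12.

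**Figure D3:**
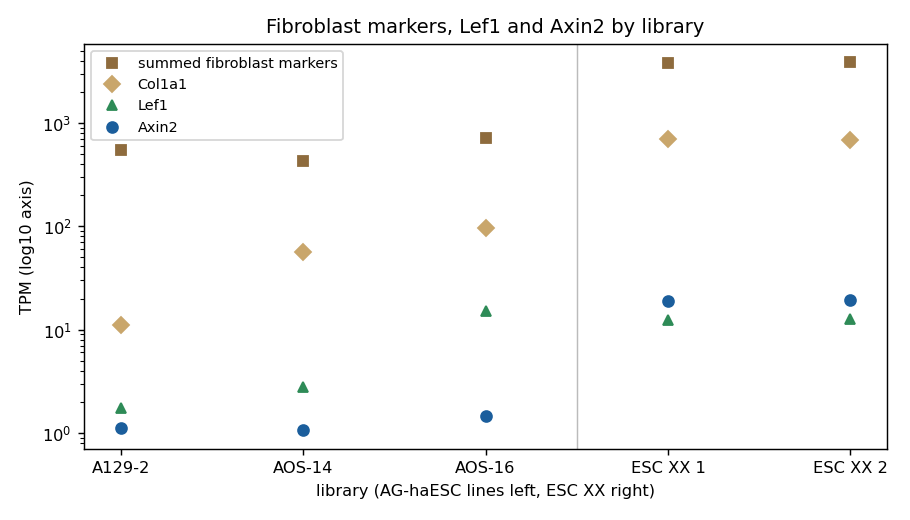
TPM on a log10 axis of the summed fibroblast markers, Col1a1, Lef1 and Axin2 in the 3 AG-haESC lines and the 2 ESC XX libraries, 1 point per library. Among the lines the sum runs from 430 to 716 TPM and Axin2 from 1.06 to 1.47 TPM, with overlapping counting intervals for Axin2. Col1a1 runs from 11.1 to 95.4 TPM and Lef1 from 1.72 to 15.3 TPM. All but Lef1 are higher in both ESC XX libraries than in every line.

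Other WNT targets were next counted, from a list drawn up for the pathway. Of 20 such genes 14 were kept, 6 were lower and 1 was higher in AG-haESCs than in ESC XX, and the median was -0.80 against 0.00 for all genes. Over all genes kept, 8.28% were lower and 7.37% higher by the rule. Myc, a growth regulator, differed by -3.80 ± 0.60 (log2 ± SD, n = 3), Notum, a secreted enzyme that inactivates WNT proteins, by -2.0 ± 0.45, and Lgr5, an R-spondin receptor of stem cells, by -1.79 ± 0.07. Notum was at 6.97, 5.86 and 11.5 TPM in the lines and at 39.0 and 34.5 TPM in ESC XX, with no overlap. Cyp26a1, a retinoic acid hydroxylase, was the gene that was higher, by 1.43 ± 0.38. The other 3 that were lower, named after their values were seen, were Bmp4, Msx2 and Ccnd1. Of 9 genes known as targets of repression by Tcf7l1 in mouse embryonic stem cells, 3 were lower and none higher, with a median of -0.65. These were Lefty2, a NODAL inhibitor (-2.61 ± 1.19), Tbx3, a naive-state factor (-1.34 ± 0.36), and Nr5a2, a nuclear receptor (-1.07 ± 0.55). Nanog, which is on that list, differed by -0.27 ± 0.33 and did not meet the rule. The lists share members, since Notum and Lgr5 are also counted among antagonists and receptors of the pathway. Nanog, Esrrb and Klf4 of the Tcf7l1 list and Tdgf1 of the other targets are also pluripotency markers. Their counts are therefore not separate.

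Upstream of these targets, the kinase and β-catenin transcripts overlapped between the groups, while those of the scaffold Apc did not. Gsk3a was at 67.5, 58.2 and 71.1 TPM in A129-2, AOS-14 and AOS-16 and at 70.8 and 69.5 TPM in ESC XX. Gsk3b, its paralog, was at 26.2, 16.1 and 17.0 TPM against 18.04 and 18.8 TPM. Ctnnb1, which encodes β-catenin, was at 352, 255 and 296 TPM against 307 and 305 TPM. For these 3 genes the ESC XX values lay within the range of the lines. Apc, named after its values were seen, was at 17.2, 8.97 and 11.2 TPM in the lines and at 25.6 and 26.1 TPM in ESC XX, and its difference of -0.94 ± 0.44 fell just short of the rule. None of 15 destruction complex and Dishevelled genes and none of 17 nuclear β-catenin cofactors met the rule, with medians of 0.07 and -0.15. In the first list 1 gene met it without A129-2, with no filter on low values, or with the median difference kept. In the second, 1 gene met it without AOS-14, with a pseudocount of 0.1, with no filter, or with the median difference kept. These are transcript levels and carry no measure of kinase activity or of β-catenin protein.

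Ligands, receptors and secreted antagonists showed scattered differences. Of 19 WNT ligands 6 were kept, and Wnt5a (-2.80 ± 0.17) and Wnt5b (-1.43 ± 0.19), which act mainly outside the β-catenin branch, were lower while Wnt7b was higher (1.92 ± 0.94). The ligand median was -0.79. Porcn, the acyltransferase that lipidates WNT proteins, was higher by 1.32 ± 0.25, and Wls, their carrier to the cell surface, was lower (-2.02 ± 0.36). Of 14 receptors kept, Fzd10 (-1.72 ± 0.37) and Ror2 (-1.01 ± 0.52) were lower and none was higher (median -0.40). Ror2 lay at the edge of the rule and did not meet it after quantile normalization or with genes under 200 nt left out, where 1 receptor was lower. Of 4 R-spondin, LGR and ZNRF3 genes kept, Lgr5 alone was lower (median -0.53), while 2 met the rule without AOS-16. Of 9 secreted antagonists kept, Dkk2 (-2.06 ± 0.07) and Notum were lower and Sfrp5 was higher (1.45 ± 0.28), with a median of 0.21. In the higher direction 7.37% of all genes kept met the rule, and in the lower direction 8.28%. Wnt5a, Wnt5b, Lgr5 and Dkk2 reached an FPKM of 1 in ESC XX alone, and Wnt7b and Sfrp5 in the lines alone. Counts that include such genes, here or in the lists above, say little by themselves.

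**Figure D4:**
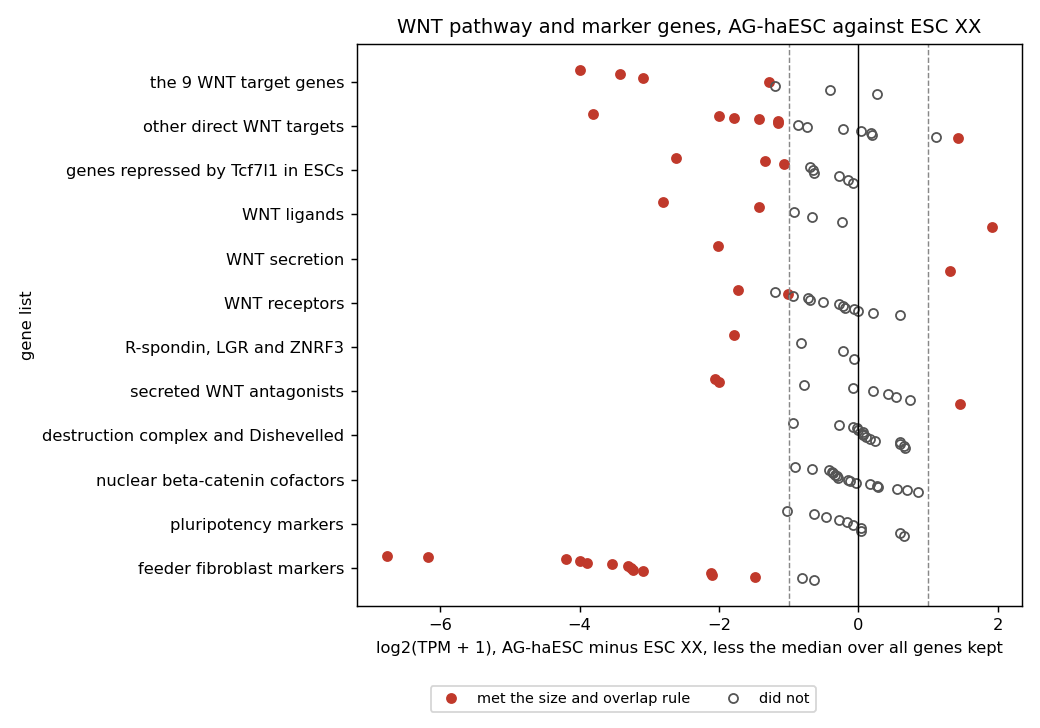
Difference between AG-haESCs and ESC XX in log2(TPM + 1), less the median over all genes kept, for each gene kept of the 9 WNT target genes, of 9 further lists of the pathway, and of 2 marker lists, with genes that met the size and overlap rule filled. No gene of the destruction complex or nuclear cofactor lists met the rule (medians 0.07 and -0.15), though Apc reached -0.94 and Tle2 -0.90. Of 15 fibroblast markers, 13 lie below -1 without overlap.

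Markers of the primitive streak and mesoderm, where T is expressed in the embryo, were mostly too scarce to compare. Of 13 such genes only 4 were kept, and none of these was lower in AG-haESCs. Gsc, a homeobox factor of the organizer, and Hand1, a basic helix-loop-helix factor, were higher (1.16 ± 0.58 and 1.51 ± 0.43). Of all genes kept, 7.37% met the rule in the higher direction and 8.28% in the lower. Counts over so few genes say little by themselves. Without AOS-14, 1 of these met the rule. Eomes, a T-box relative of T, was at 4.86, 2.95 and 8.95 TPM in the lines and at 6.62 and 6.11 TPM in ESC XX, so the groups overlapped. Of primitive endoderm markers 5 of 9 were kept and 2, Lamb1 and Col4a1, were lower (-1.18 and -1.26). Of Sertoli and Leydig markers 5 of 8 were kept and 1, Wt1, was lower (-1.61), while 3 met the rule without A129-2 and 2 without the second ESC XX library.

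Against round sperm, the comparison was a test within 1 table. AG-haESCs were set against the single round sperm library by limma on log2(FPKM + 1), with 2 residual degrees of freedom that all come from the lines. The test takes the spread of round sperm, which had no second library, to equal theirs. A gene was called at an adjusted p under 0.05 (limma, Benjamini-Hochberg over all genes tested, two-sided) with a difference of at least 1. Tcf7l1, Cdx1 and Tcf7 rose and Rnf43 fell. They are 4 of the 5 genes that reached an FPKM of 1 in at least 1 of the 4 libraries, while 22.8% of the 15938 genes tested rose and 39.1% fell, 61.9% in all. Rnf43 passed through round sperm alone and Cdx1 and Tcf7l1 through the lines alone, so this count says little by itself. With no filter on low values the same 4 were called, beside 3291 of 23889 genes that rose and 5966 that fell. Genes of the lists below could also pass through 1 group alone.

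Tcf7l1 was at 63.1, 41.3 and 48.7 FPKM in A129-2, AOS-14 and AOS-16 and at 0.521 FPKM in round sperm. The rise was 5.07 on the log2 scale with an SE of 0.31 (n = 3 lines and 1 library, limma, adjusted p = 0.00295). Tcf7 was at 8.58, 15.9 and 14.7 FPKM against 1.68 FPKM, and rose by 2.35 ± 0.45 (adjusted p = 0.0284). Without AOS-14 or AOS-16 the Tcf7 call was lost, at an adjusted p of 0.0979 and 0.102 by limma. Cdx1, at 1.39, 1.57 and 1.60 FPKM against a listed 0, had a fitted difference of 1.33 ± 0.07 (adjusted p = 0.00235), which depends on the pseudocount and is not a fold.

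Rnf43 was at 0.0528, 0.197 and 0.181 FPKM in the lines and at 1.49 FPKM in round sperm, and fell by 1.13 on the log2 scale (-1.13 ± 0.10, limma, adjusted p = 0.00617). When each library was rescaled to the same total, its difference was -0.84 and the call was lost. The FPKM of round sperm summed to 1239225 and those of the lines to between 509359 and 707325. Lef1 was at 0.879, 1.96 and 8.34 FPKM against 34.4 FPKM in round sperm. Every line lay below the round sperm value, but with the spread of the lines the difference of -3.25 ± 1.18 was not called (limma, adjusted p = 0.103), and without AOS-16 it was -3.91 (adjusted p = 0.0405). Axin2, Sp5, Nkd1 and T stayed under an FPKM of 1 in all 4 libraries. When they were tested with no filter, limma gave Axin2 a difference of 0.45 ± 0.11 (adjusted p = 0.0690) and T one of 0.27 ± 0.03 (adjusted p = 0.0111). Sp5 stood at -0.02 and Nkd1 at 0.06, and none of the 4 was called.

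The rest of the pathway differed broadly between AG-haESCs and round sperm, as did all genes, whose median was -0.49. Of all genes tested 22.8% rose and 39.1% fell, 61.9% in all. A list count near or below these shares is no result about that list. Of 15 destruction complex and Dishevelled genes tested, 8 rose and 5 fell (median 1.02). Ctnnb1 rose from 11.3 FPKM in round sperm to 179, 181 and 162 FPKM in the lines (3.82 ± 0.12, limma, adjusted p = 0.000781), and the tankyrase Tnks2, which marks AXIN proteins for degradation, by 4.88 ± 0.14. Dvl3 and Dvl2, of the Dishevelled family, rose by 3.30 and 2.80. Gsk3a did not pass (0.00 ± 0.15, limma, adjusted p = 0.986), with 34.4, 41.2 and 38.9 FPKM against 37.9 FPKM, whereas Gsk3b fell (-1.45 ± 0.25, limma, adjusted p = 0.0232) from 32.4 FPKM to between 9.29 and 13.3 FPKM. Of 16 nuclear cofactors 7 rose and none fell (median 0.71), led by the corepressor subunit Tbl1x (4.86), the Groucho-type corepressors Tle4 (3.81) and Tle1 (3.04), and Ctbp1 (2.39). Without AOS-14, calls fell from 13 to 8 in the destruction complex list and from 7 to 4 among the cofactors.

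The counts that follow stand beside 22.8% of all genes tested that rose and 39.1% that fell. Of 14 receptors tested 7 rose and 1 fell (median 1.30), with Ryk at 3.63, Fzd7 at 3.18, Fzd5 at 3.18 and the co-receptor Lrp6 at 2.75. Both secretion genes rose, Porcn by 4.09 and Wls by 3.43. Among 7 ligands tested none rose and 4 fell (median -1.32), which were Wnt3 (-3.33), Wnt3a (-2.23), Wnt5b (-1.83) and Wnt2 (-1.32). These 4 reached an FPKM of 1 in round sperm alone, and the other ligands tested did so in the lines alone. Their direction was thus tied to the filter, and the ligand counts say little by themselves. Of 8 secreted antagonists 4 rose and 1 fell (median 1.69), with Sfrp1, Notum, Dkk3 and Sfrp5 up by 4.18, 2.47, 1.89 and 1.48. Of 4 R-spondin, LGR and ZNRF3 genes, Lgr4 rose (2.03) and Lgr6 and Lgr5 fell (-2.07 and -1.56), with a median of -1.48. Other direct WNT targets gave 4 that rose and 3 that fell of 15 (median 0.81), among them the NODAL co-receptor Tdgf1 (7.42), Sox17, an endoderm factor (-3.81), Ccnd1, a G1 cyclin (2.74), and Apcdd1, a WNT inhibitor (2.5). Of 9 genes repressed by Tcf7l1 in embryonic stem cells 7 rose and none fell (median 3.46), with Nanog at 7.59, the nuclear receptor Nr0b1 at 4.84, Tbx3 at 4.67 and Lefty2 at 4.36. Of 7 primitive streak and mesoderm genes Eomes rose (1.99) and 3 fell, Mesp1 by the most (-7.51), with a median of 0.20. In the marker lists, of 15 fibroblast markers 2 rose and 1 fell (median 1.19), and of 7 primitive endoderm markers 2 rose and 2 fell (median 1.06). All 12 spermatid markers fell and 8 of 10 pluripotency markers rose (medians -10.01 and 6.25), and of 4 Sertoli and Leydig markers 1 rose (median 0.21). Without AOS-14, calls went from 5 to 1 among antagonists, from 7 to 4 among other targets and among the genes repressed by Tcf7l1, from 2 to 1 among secretion genes, and from 4 to 0 among primitive endoderm markers. Without AOS-16, they were 3 for antagonists, 4 for the genes repressed by Tcf7l1, 1 for secretion and 2 for primitive endoderm. Without A129-2, calls among fibroblast markers went from 3 to 7, and the Sertoli and Leydig call was lost, as it was without AOS-14.

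Between the haploid lines, few of the 9 genes differed by 2-fold in TPM + 1. Lef1 was past that bound between AOS-16 and each of the other lines, by 2.58 and 2.11 on the log2(TPM + 1) scale, and no other gene was for these pairs. Of all genes kept, 15.8% were 2-fold apart between A129-2 and AOS-16 and 11.2% between AOS-14 and AOS-16. Between A129-2 and AOS-14 only Tcf7l1 was, by 1.07, beside 21.2% of all genes, and the bound was no longer met once the median difference of these lines, 0.34, was removed. Genes under 200 nt held 12.7% of the FPKM in AOS-14 and 0.111% in A129-2. Axin2, Sp5, Nkd1, T and Rnf43 did not reach an FPKM of 1 in any line and were not counted there. Nkd1 lies on chromosome 8, where the median of 445 genes averaging 10 TPM or more over the lines was 0.93 (log2) above the other autosomes in A129-2 relative to AOS-14 and AOS-16. Nkd1 differed by -0.10 in log2(TPM + 1), on about 6, 22 and 9 fragments. At its 0.328 to 0.434 TPM the pseudocount of 1 holds a difference down, so this value cannot be set against the 0.93.

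The genes most like each of the 9 were sought by the root mean square distance between profiles of log2(TPM + 1) over the 6 libraries, each centred on its own mean, among 16303 genes. Axin2 was nearest to Csf1 (0.12), Tgfbr2 (0.13) and Hoxc6 (0.19), and Sp5 to Fads3 (0.05), Lrrc32 (0.12) and Ptx3 (0.13). Cdx1 lay nearest to Acta1 (0.19), Cd248 (0.22) and Gm5662 (0.24), and T to Epha1 (0.06), Stox1 (0.09) and Gpc6 (0.12). Among the 9 themselves, Sp5 was at place 25 from Axin2 and Axin2 at place 26 from Sp5. From Cdx1, Axin2 was at place 54 and Sp5 at place 88. Closeness was limited to some pairs. From Axin2, the remaining genes ran from Cdx1 at place 191 and T at 509 to Nkd1 at 2193 and Tcf7 at 2308. Rnf43, Lef1 and Tcf7l1 were at 6572, 9784 and 11782 from Axin2. Tcf7l1 lay nearest to Cd97 (0.12), Eif4ebp1 (0.13) and Gm11974 (0.13), Tcf7 to Mccc1 (0.06), Smarcd1 (0.10) and Tcof1 (0.12), and Lef1 to Frmd4b (0.49), Pxdc1 (0.49) and Kank3 (0.52). The Lef1 neighbours were the most distant. Nkd1 and Rnf43, whose profiles are nearly flat on this scale, were nearest to Spag7 (0.04), Tbc1d17 (0.06) and Nrarp (0.08), and to Dus1l (0.08), Eif2b4 (0.09) and Hpgds (0.09). The profiles share the same 6 libraries and their fibroblast content, and likeness says nothing of a common control.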

How the data were processed

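PolyA RNA was made into stranded libraries, per the labels' protocols. The submitters' processing notes name TopHat2 2.0.13, Cuffdiff 2.2.1 and the build mm9, without settings, annotation or use of strand. The deposited tables were taken to hold FPKM made by the authors. The table with the AG-haESC and round sperm libraries names no unit, and there it was taken from Cuffdiff and the size of the values. Each ESC XX library has its own table, normalized apart from the rest.

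FPKM were tested with limma 3.58.1 in R 4.3.3 (trend) on log2(FPKM + 1), or rescaled to TPM. Genes reaching 1 FPKM in any library compared were kept. The files hold no counts. Depth was estimated from the steps of low FPKM in 2963 genes with 1 annotated transcript over 1000 nt (GENCODE, GRCm38), and fragments per gene, from the longest annotated transcript, are approximate. Intervals and floors (3 fragments) cover counting error only. The p-values measure the spread between cell lines.

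The 9 genes and all lists were chosen with earlier results of these data known, so no list is independent support. Besides the 9, the text names Gsk3a, Gsk3b and Ctnnb1 and, by rule, at most 4 called genes with the largest difference per pathway list and comparison, and at most 3 per marker list. Bmp4, Msx2, Ccnd1, Apc, and Nanog and Eomes against ESC XX, fall outside it and were chosen after their values were seen. Alternatives were another pseudocount (0.1), no filter, other scalings, leaving out genes under 200 nt, and leaving out each library.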

Additional observations from a re-analysis of the deposited data

How the results depend on the processing

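The 4 genes lower in AG-haESCs than in ESC XX stayed 4 under every alternative but 2. With a bound of 2 in place of 1 on the log2 scale T dropped out and 3 were left, while 600 genes in all met the rule in place of 2061. Without AOS-16 Lef1 joined and 5 met it. With a pseudocount of 0.1 the differences were larger, at -5.73 for Sp5, -4.36 for Cdx1, -3.77 for Axin2 and -2.40 for T. Scaling moved the balance over all genes. With the median difference kept, 643 genes were higher and 1298 lower, against 971 and 1090. Against round sperm, 3632 rose and 6232 fell as deposited, 4867 and 4481 after rescaling to the same total and 4771 and 4571 after quantile normalization, with the median of all genes moving from -0.49 to 0.40 and 0.31. Rnf43 was then not called (-0.84 and -0.81, limma), nor with short genes left out (-0.88), while Tcf7l1 and Cdx1 were called under all 8 alternatives. Between A129-2 and AOS-14 the count of the 9 genes 2-fold apart went from 1 to 0 with short genes left out, with quantile normalization, and with the median difference removed, the last chosen after seeing the data. No paired analysis was possible because the numbers of the AG-haESC lines are names given in accession order and round sperm has 1 library. Depth limits Sp5, T, Nkd1 and Rnf43 most, and a value listed at 0 may be a failed estimate. Differences from ESC XX were described without a test.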
